A study of Mus musculus with 12 samples.

Results

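The 10 genes described here carry the decision of a cell to leave G1 and copy its DNA: the D-type cyclins Ccnd1, Ccnd2 and Ccnd3, their kinases Cdk4 and Cdk6, the transcription factor Myc, the CDK inhibitors Cdkn1a, Cdkn1b and Cdkn2c, and the retinoblastoma gene Rb1. They were chosen by name, as the rows of these symbols in a table of 24781 genes, and all 10 were found and passed the filter on low values. RNA was counted in 12 libraries of tumour-associated macrophages (TAMs), each made from 100 CD45+CD11b+F4/80high cells sorted on day 7 from an MC38 tumour, a mouse colon adenocarcinoma line inoculated into the skin of wild-type mice. The 6 libraries labelled Mp-DMSO came from mice injected intraperitoneally with the solvent DMSO, and the 6 labelled Mp-Picro came from mice injected with picrotoxin, which blocks the ionotropic GABA type A receptor. According to the methods of the study, injections began on the day before inoculation and went on every other day, the wild-type mice were C57BL/6J or C57BL/6N adults of both sexes, and no strain, age or sex is tied to a library. The injection was not confined to the tumour or to macrophages. The methods speak of a separate mouse for each library, whereas a figure legend counts fewer mice than libraries, and p-values would be too small if libraries shared a mouse.

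D-type cyclins are made in answer to growth signals, which for macrophages come mainly through the M-CSF receptor. They bind CDK4 or CDK6, and these kinases phosphorylate the RB protein, which then releases E2F factors to switch on the genes of DNA synthesis. MYC drives ribosome production and cell growth and is low in resting macrophages. Inhibitors of the INK4 family, such as p18 made from Cdkn2c, bind the CDK4 and CDK6 kinases, whereas p21 from Cdkn1a and p27 from Cdkn1b act on CDK2 complexes and are also carried by cyclin D complexes. TAMs can divide inside tumours, and the comparison asks whether blockade of the GABA receptor in the animal went with a different transcript level of these regulators.

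Libraries held between 201697 and 309617 molecules, each molecule being a distinct barcode rather than a PCR read, and levels are given as normalised molecules, which are counts divided by the DESeq2 size factor of the library. Of 12 macrophage markers, 12 were found in each group and made up 1.33% ± 0.17 of the DMSO and 1.41% ± 0.054 of the picrotoxin molecules (mean ± SD over 6 libraries a group). Of 13 fibroblast and matrix genes, 10 were tested and all 10 had a fitted fold change below 0, 7 of them with an unadjusted p under 0.05 and 0 with an adjusted p under 0.05 in edgeR. Their summed share ran from 0.00683% to 0.255% in DMSO and from 0.00572% to 0.0208% in picrotoxin libraries, and the highest shares were those of DMSO replicates 5 and 3. Epithelial markers summed to at most 21 molecules in a library, with Epcam, Krt18, Krt19 and Krt7 at 0 in all 12, and lists for endothelial cells, B cells, neutrophils and dendritic cells each summed to at most 22. T and NK cell markers were at 1 molecule or fewer in DMSO libraries and reached 23 in picrotoxin replicate 6. Libraries numbered 1 and 2 in both groups stood apart from those numbered 3 to 6 in earlier results of these data, although no label marks them as a batch, and values within each set are given below.

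None of the 10 regulators differed between picrotoxin and DMSO at an adjusted p under 0.05. In edgeR's quasi-likelihood test with Benjamini-Hochberg adjustment over all 9580 tested genes, 0 of the 10 were called, against 0.0522% of all tested genes, and the lowest adjusted p among them was 0.620. At an unadjusted p under 0.05, 1 of the 10 was called (Ccnd1, lower), where 7.72% of all tested genes were called. DESeq2 and limma-voom gave the same counts, 0 at the adjusted and 1 at the unadjusted threshold. The normalised molecules of the groups overlapped for all 10, while they did not overlap for 0.386% of all tested genes. Fitted log2 fold changes, given throughout as picrotoxin over DMSO, were below 0 for 6 members and above 0 for 4, with a median of -0.06 beside -0.0052 over all tested genes. In bulk RNA of this kind, fewer cells that make a transcript and less of it per cell cannot be told apart.

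**Figure D1:**
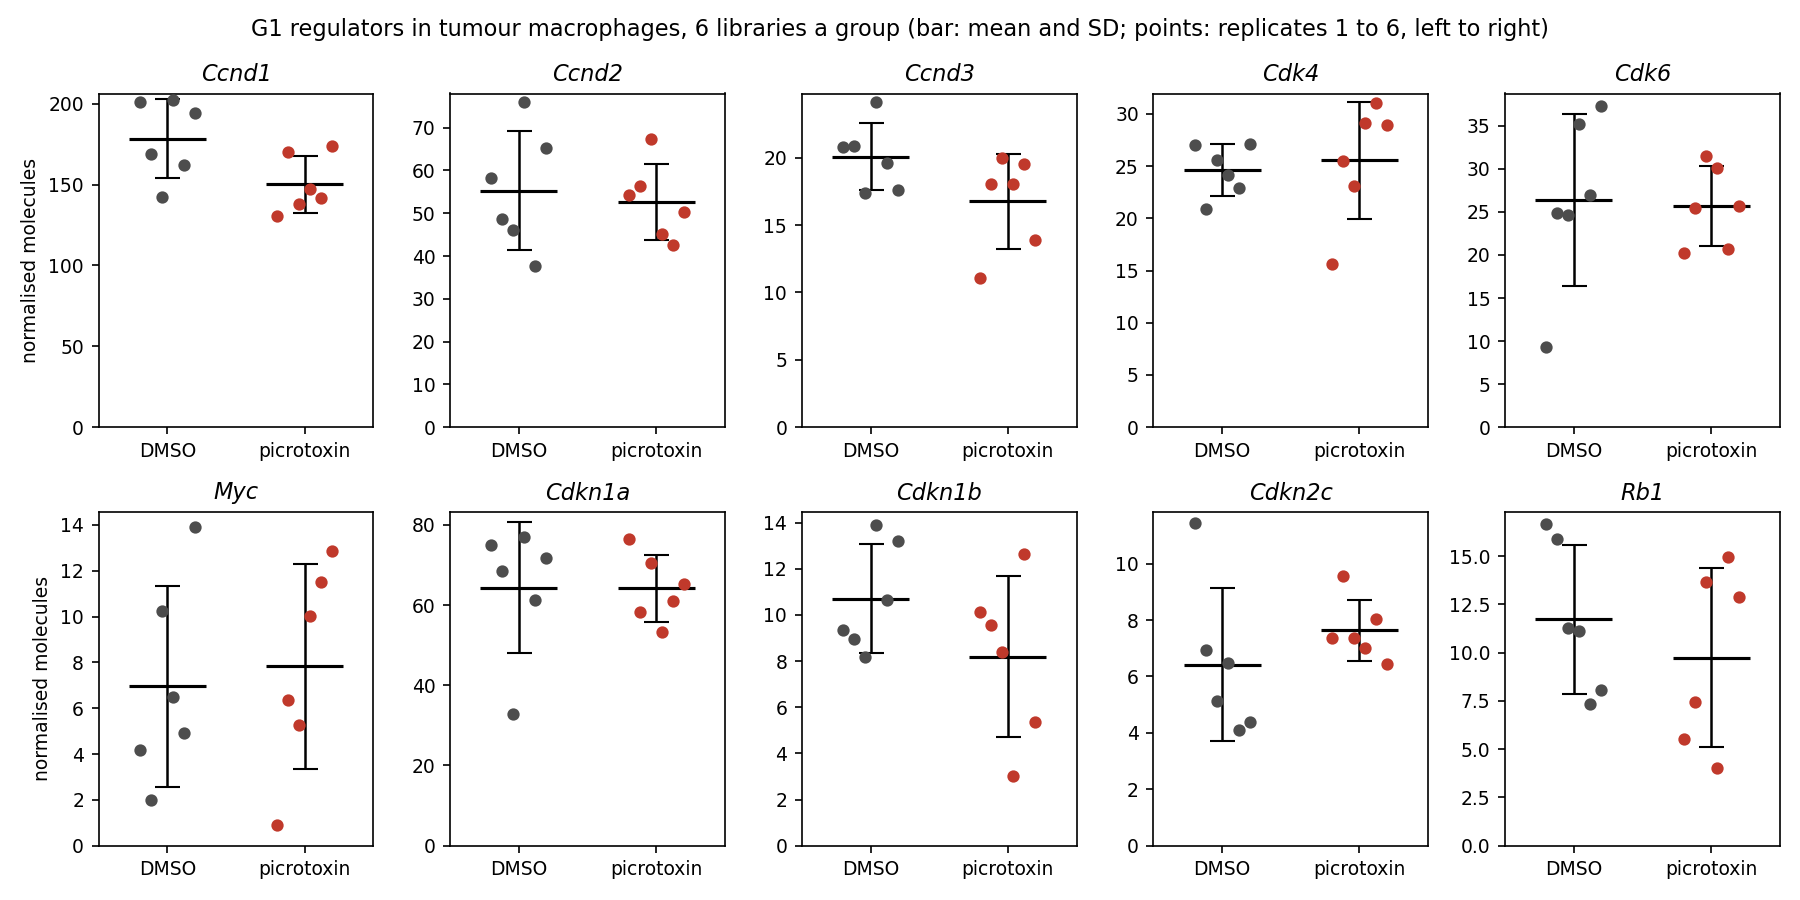
Normalised molecules (vertical axis, linear and starting at 0) of the 10 genes in 6 DMSO and 6 picrotoxin libraries; points are libraries, replicates 1 to 6 from left to right, and bars give the mean and SD. All 6 picrotoxin libraries lie below the DMSO mean for Ccnd1 and Ccnd3 and above it for Cdkn2c, and the groups overlap in every panel.

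Ccnd1, the D cyclin most directly tied to growth factor signalling, had the clearest difference. Its normalised molecules ranged from 142 to 202 with a median of 181 in DMSO and from 131 to 174 with a median of 144 in picrotoxin libraries. All 6 picrotoxin libraries lay below the DMSO mean, 3 of them lay below the lowest DMSO library, and DMSO replicates 1, 4 and 6 lay above the highest picrotoxin library. The means were 178 ± 24.4 and 150 ± 17.6 (SD, n = 6), a log2 fold change of -0.24 (SE 0.11, 95% interval -0.46 to -0.017), or 0.848-fold. The unadjusted p was 0.0360 and the adjusted p was 0.620, so the difference was not called. Its unadjusted p rose above 0.05 when any of DMSO replicates 1, 4 or 6 or picrotoxin replicates 1, 3, 4 or 5 was left out, with a highest p of 0.0826 and a log2 fold change no nearer 0 than -0.20. Among DMSO libraries, Ccnd1 was lowest in replicates 3 and 5, at 142 and 162, the libraries with the highest matrix share (0.0852% and 0.255%). Leaving out these libraries, the lowest of the DMSO group, necessarily raises the DMSO mean. Without them the log2 fold change of Ccnd1 was -0.35 (unadjusted p = 0.00308 and adjusted p = 0.694 in edgeR). A fit with the matrix score as a covariate gave -0.33 (unadjusted p = 0.00459 and adjusted p = 0.674 in edgeR). The matrix score of a library is the mean log2 level (CPM) of the 10 tested fibroblast and matrix genes. The part of matrix RNA in the difference was not tested beyond these fits. Within libraries 1 and 2 the means were 185 and 150 normalised molecules, and within libraries 3 to 6 they were 175 ± 27.9 and 150 ± 16.2 (SD, n = 4 each), where the log2 fold change was -0.21 with an unadjusted p of 0.105.

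The gene lies on the minus strand of chromosome 7 (chr7:144929931-144939925, GRCm38, also called mm10), and the end of its transcript overlaps Oraov1 on the opposite strand. Whether the counting used strand was not stated, so reads of such partners cannot be told apart, but Oraov1 averaged 3.02 normalised molecules beside 164 for Ccnd1.

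Ccnd2 and Ccnd3 encode the other D cyclins, which are prominent in cells of the blood lineages. Ccnd2 ranged from 37.6 to 76.1 normalised molecules with a median of 53.5 in DMSO and from 42.6 to 67.3 with a median of 52.4 in picrotoxin libraries, and the picrotoxin values lay inside the DMSO range. Its log2 fold change was -0.06 (95% interval -0.37 to 0.25; unadjusted p = 0.702 in edgeR). Ccnd3 ranged from 17.4 to 24.1 with a median of 20.2 in DMSO and from 11.1 to 20.0 with a median of 18.1 in picrotoxin libraries. All 6 picrotoxin libraries were below the DMSO mean for Ccnd3, with means of 20.1 ± 2.49 and 16.8 ± 3.52 (SD, n = 6). The log2 fold change of -0.25 had a wider interval than that of Ccnd1, from -0.64 to 0.14 (unadjusted p = 0.201 in edgeR). Ccnd3 shares stretches of at least 100 bases at 95% identity or more with 64 other genes, among them the pseudogene Ccnd3-ps over 881 bases, and how the authors counted reads with several matches was not stated. Its end also overlaps Bysl on the opposite strand, which averaged 5.66 normalised molecules.

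The mix of D cyclin molecules did not differ between the groups by more than the spread between libraries. Of all molecules of the 3 cyclins in a library, Ccnd1 made up 70.4% ± 2.37 in DMSO and 68.3% ± 4.02 in picrotoxin, Ccnd2 21.6% ± 2.78 and 24.03% ± 3.84, and Ccnd3 7.99% ± 0.97 and 7.66% ± 1.64 (SD, n = 6). These are shares of counted molecules, not of levels per transcript length, and serve only to compare libraries. The means lay within 1 SD of single libraries of each other for all 3 shares, and the difference in means was not tested. The summed D cyclin level ranged from 206 to 302 normalised molecules in DMSO and from 196 to 244 in picrotoxin libraries.

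Cdk4, a kinase partner of the D cyclins, ranged from 20.9 to 27.1 normalised molecules with a median of 24.9 in DMSO and from 15.7 to 31.1 with a median of 27.2 in picrotoxin libraries. Picrotoxin replicate 1 was the lowest of all 12 libraries and picrotoxin replicates 4, 5 and 6 were the highest, so the picrotoxin values spread on both sides of the DMSO values. The log2 fold change was 0.05 (95% interval -0.30 to 0.41; unadjusted p = 0.759 in edgeR). The end of Cdk4 overlaps Tspan31 on the opposite strand, which averaged 16.5 normalised molecules and had a log2 fold change of -0.53 (unadjusted p = 0.0173 in edgeR), so reads assigned to either gene are uncertain.

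Cdk4 lies at chr10:127063534-127067920 on the plus strand (GRCm38), and the bases before its start are shown because Cdk4 was the gene whose levels followed Myc most closely, as described below, and because they carry many copies of the E-box CACGTG, the site that MYC with its partner MAX binds. The sequence is the 250 bases before the RefSeq start at chr10:127063285-127063534 (GRCm38.p6, plus strand), written 5′ to 3′ with each E-box in capitals. That of Cdk6, at chr5:3343643-3343892 on the plus strand, is given beside it.
Cdk4: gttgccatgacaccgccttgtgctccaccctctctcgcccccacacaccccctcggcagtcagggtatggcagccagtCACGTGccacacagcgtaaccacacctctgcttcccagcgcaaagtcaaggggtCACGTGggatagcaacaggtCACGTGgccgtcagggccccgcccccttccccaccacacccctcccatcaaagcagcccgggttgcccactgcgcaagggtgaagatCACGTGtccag
Cdk6: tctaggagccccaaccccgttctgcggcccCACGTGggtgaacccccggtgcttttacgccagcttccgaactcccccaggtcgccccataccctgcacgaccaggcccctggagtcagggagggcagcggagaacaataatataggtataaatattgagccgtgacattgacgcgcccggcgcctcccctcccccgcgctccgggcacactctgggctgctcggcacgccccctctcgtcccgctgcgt
The Cdk4 sequence holds 4 E-boxes, which begin 172, 118, 98 and 11 bases before the start, and that of Cdk6 holds 1, which begins 220 bases before it. The letters read the same on both strands. In windows of 250 bases before to 50 after a start, CACGTG was found in 7.15% of 32851 RefSeq mouse promoters and in 3 of the 9 promoters listed for members, the third being a downstream start of Cdkn2c, while 0.0244% of promoters (8 of them) held 4 or more. Promoters of 6 of the 10 members were in the reference, and those of Ccnd1, Ccnd2, Myc and Rb1 were not analysed here. The E2F letters TTTCGCGC or TTTGGCGC, searched on both strands, were in 0 of the 9 windows, beside 0.813% of all promoters. A match is a run of letters, not a measured binding site. Cdk4 was picked with its correlation and its E-boxes known, and whether MYC acts on it was not tested.

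Cdk6, the other D cyclin kinase, varied more among DMSO libraries, from 9.36 to 37.4 normalised molecules with a median of 25.9, than among picrotoxin libraries, from 20.3 to 31.5 with a median of 25.6. DMSO replicate 1 was lowest and DMSO replicate 6 highest, and all picrotoxin values lay between them. The log2 fold change was -0.06 (95% interval -0.48 to 0.36; unadjusted p = 0.778 in edgeR). Segments of Cdk6 recur in 87 other genes, so its count is uncertain in the same way as that of Ccnd3.

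Myc was counted at few molecules, 48 in all DMSO and 44 in all picrotoxin libraries, and spread widely. It ranged from 1.99 to 13.9 normalised molecules with a median of 5.70 in DMSO and from 0.922 to 12.9 with a median of 8.20 in picrotoxin libraries. The lowest values, picrotoxin replicate 1 and DMSO replicate 2, stood for 1 and 2 molecules, and the highest, DMSO replicate 6, for 19. The groups overlapped along nearly their whole range, and the log2 fold change was 0.10 with an interval from -0.70 to 0.89 (unadjusted p = 0.802 in edgeR). This interval holds both a fall to 0.617-fold and a rise to 1.86-fold, so changes within it are not excluded. The spread of Myc between DMSO libraries, a coefficient of variation of 63.1%, was larger than the 36.1% that counting error alone gives at its mean count. Myc lies at chr15:61985391-61990374 on the plus strand, overlaps no other annotated exon and shares no long segment with another gene.

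Across libraries, Cdk4 had the log2 level most like that of Myc of 3741 genes with a mean of at least 10 normalised molecules. Pearson's r was 0.87 over 12 libraries and Spearman's rho was 0.73. The value was 0.66 within the 6 DMSO and 0.99 within the 6 picrotoxin libraries, 0.84 over the 8 libraries numbered 3 to 6, and 0.65 without picrotoxin replicate 1 and DMSO replicate 2, the libraries farthest from the median Myc level. Leaving out any 1 library gave r between 0.77 and 0.93. The pair was picked as the highest of many, so no p is given. The next most alike were Gm6402 (r = 0.85) and Atp13a3 (r = 0.83), a transporter of polyamines.

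**Figure D2:**
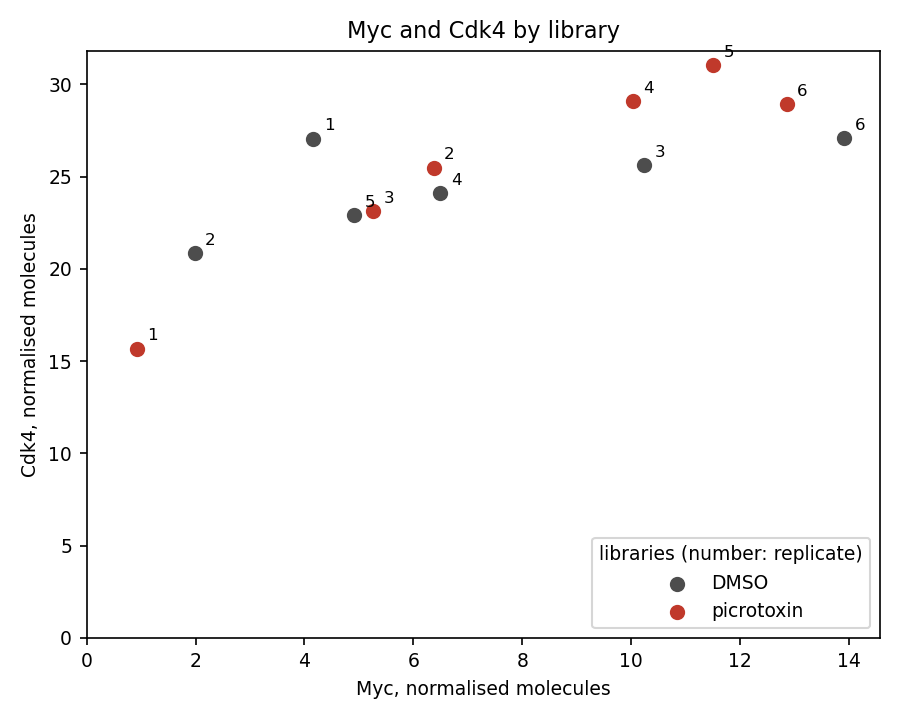
Normalised molecules of Myc (horizontal axis) and Cdk4 (vertical axis) in each library, both axes linear and starting at 0; numbers are replicates. Picrotoxin replicate 1 is lowest in both, at 0.922 and 15.7, and the picrotoxin libraries run in nearly the same order for both genes (r = 0.99 on the log2 scale, n = 6).

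Cdkn1a encodes p21, the CDK inhibitor that p53 induces. In DMSO it ranged from 32.8 to 77.0 normalised molecules with a median of 70.1, and in picrotoxin from 53.2 to 76.5 with a median of 63.2. The DMSO minimum was a single library, replicate 3, while the other 5 lay between 61.4 and 77.0. The means were almost equal, 64.4 ± 16.4 and 64.1 ± 8.45 (SD, n = 6), with a log2 fold change of 0.0028 (95% interval -0.30 to 0.31; unadjusted p = 0.985 in edgeR). Without DMSO replicate 3 the log2 fold change was -0.14 (unadjusted p = 0.276). That library also had the lowest macrophage marker share of the 12, at 1.10%, and the second highest matrix share, at 0.0852%; their part in its Cdkn1a level was not tested. The genes most like Cdkn1a across the 12 libraries were the leukocyte tetraspanin Cd53 (r = 0.90), the M-CSF receptor Csf1r (r = 0.85) and Ntpcr (r = 0.85), and without DMSO replicate 3 these values were 0.55, 0.49 and 0.55. Segments of Cdkn1a recur in 97 other genes, the most of any member, so its count is uncertain as those of Ccnd3 and Cdk6 are.

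Cdkn1b, which encodes p27, ranged from 8.19 to 13.9 normalised molecules with a median of 9.999 in DMSO and from 3.01 to 12.7 with a median of 8.98 in picrotoxin libraries. In the picrotoxin group, 5 of 6 libraries were below the DMSO mean, and picrotoxin replicates 4 and 6 were below every DMSO library. The log2 fold change of -0.40 was the lowest of the 10 members over all libraries, but its interval, from -0.97 to 0.17, held 0 (unadjusted p = 0.166 in edgeR). Without picrotoxin replicate 4 it was -0.22, above those of Ccnd3 (-0.27) and Ccnd1 (-0.23) in that fit. The difference lay in libraries 3 to 6, at 11.5 ± 2.60 and 7.36 ± 4.16 (SD, n = 4 each), whereas libraries 1 and 2 gave means of 9.15 and 9.85.

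Cdkn2c, which encodes the INK4 inhibitor p18, ranged from 4.09 to 11.4 normalised molecules with a median of 5.81 in DMSO and from 6.43 to 9.56 with a median of 7.37 in picrotoxin libraries. All 6 picrotoxin libraries were above the DMSO mean of 6.42, and DMSO replicate 1 was above all of them. The log2 fold change of 0.30 was the highest of the 10 members over all libraries, with an interval from -0.32 to 0.91 (unadjusted p = 0.337 in edgeR). With the matrix score as a covariate it was -0.00070. It was 0.52 without DMSO replicate 1, and 0.19 without either DMSO replicate 5 or DMSO replicate 6, and in the last of these fits Myc was higher, at 0.47. Cdkn1b and Cdkn2c overlap no other annotated exon and share no long segment with another gene.

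Rb1, the target of the cyclin D kinases, ranged from 7.36 to 16.6 normalised molecules with a median of 11.2 in DMSO and from 4.01 to 14.95 with a median of 10.1 in picrotoxin libraries. Picrotoxin replicates 1 and 4, at 5.53 and 4.01, were below every DMSO library, and the other 4 lay inside the DMSO range. The log2 fold change was -0.24 (95% interval -0.84 to 0.36; unadjusted p = 0.414 in edgeR). Libraries 1 and 2 gave means of 16.3 in DMSO and 6.48 in picrotoxin, while libraries 3 to 6 gave 9.45 ± 2.04 and 11.4 ± 4.98 (SD, n = 4 each), the opposite direction. Leaving out a single library gave between -0.40, without picrotoxin replicate 5, and -0.079, without picrotoxin replicate 4, with values of -0.12 and -0.13 without DMSO replicates 1 and 2 and -0.13 without picrotoxin replicate 1. The end of Rb1 overlaps Rcbtb2, at a mean of 5.65 normalised molecules, and another stretch overlaps Lpar6, at 12.1 beside 10.7 for Rb1, both on the opposite strand, so its count carries the doubt described for Cdk4.

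**Figure D3:**
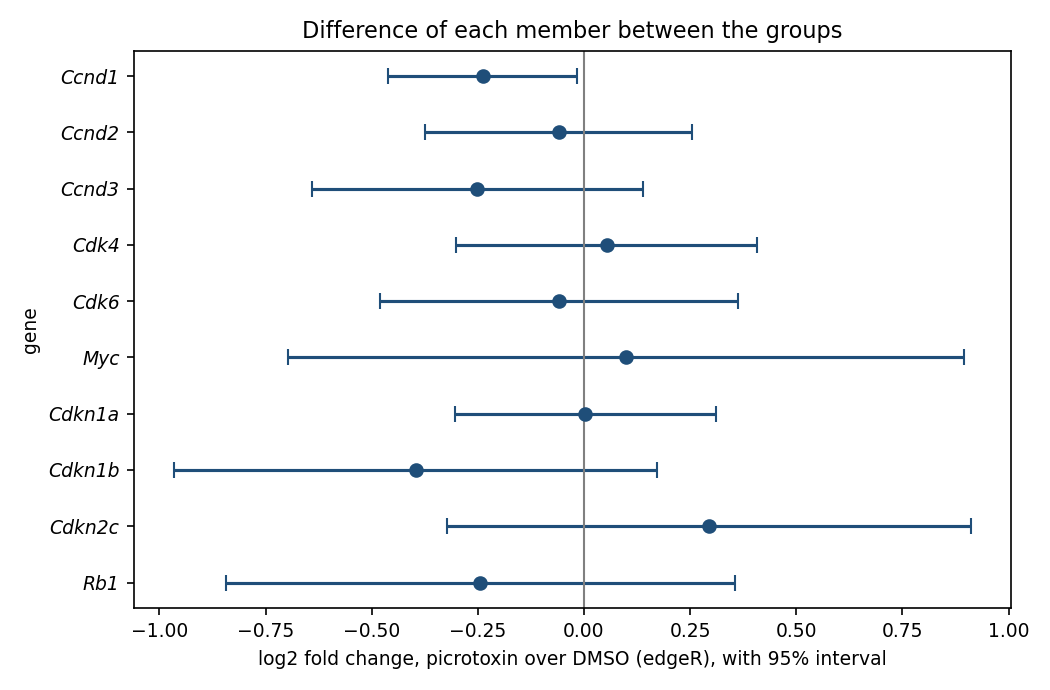
Log2 fold change of each gene, picrotoxin over DMSO, from edgeR (horizontal axis; points) with its 95% interval (bars), over 6 libraries a group. The interval of Ccnd1 ends at -0.017 and those of the other 9 genes hold 0, the widest being that of Myc.

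The members were also compared within sets of libraries and with each other. Within libraries 1 and 2 and within libraries 3 to 6, the ratio of picrotoxin to DMSO means had the same sign for 3 members (Ccnd1, Ccnd3 and Myc) and opposite signs for 7. Mean Myc in libraries 1 and 2 was 3.07 in DMSO and 3.65 in picrotoxin, beside 8.89 and 9.91 in libraries 3 to 6. Single libraries did not all follow these means: picrotoxin replicate 2, at 6.37, lay above picrotoxin replicate 3, at 5.26, and DMSO replicate 5, at 4.91. Over the 45 pairs of members, r of the log2 levels had a median of 0.17 and ran from -0.64, for Cdk6 with Cdkn2c, to 0.87, for Myc with Cdk4. The genes most like Ccnd1 were Brk1 (r = 0.82), a part of the actin-regulating WAVE complex, and the glycolytic genes Hk2 (r = 0.79) and Pgk1 (r = 0.78), each of which stayed at 0.72 or above with any 1 library left out. These correlations are descriptions over 12 libraries that share their normalisation. They include counting error, which alone gives a coefficient of variation of 36.1% for Myc and 37.6% for Cdkn2c.

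The rest of the pathway was read from lists of named genes. Over all pathway lists, the members included, 119 genes were tested, of which 0 had an adjusted p under 0.05 in edgeR, DESeq2 or limma-voom. At an unadjusted p under 0.05, edgeR called 10 of them lower and 4 higher, DESeq2 called 7 in all and limma-voom 13. Among all tested genes edgeR called 388 lower and 352 higher at that threshold, which are 4.05% and 3.67%.

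Upstream, 11 genes of M-CSF receptor signalling and cycle exit were tested, and 7 had a log2 fold change above 0. At an unadjusted p under 0.05, edgeR called 1 of them higher, beside 3.67% of all tested genes. DESeq2 called 0 and limma-voom 1. The M-CSF receptor and its adaptor had group means closer together than the SD of single DMSO libraries. Csf1r was at 214 ± 30.7 normalised molecules in DMSO and 218 ± 10.03 in picrotoxin (SD, n = 6; unadjusted p = 0.735 in edgeR), and Grb2 was at 62.7 ± 9.40 and 66.6 ± 8.29 (unadjusted p = 0.453).

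Of the other CDK inhibitors and pocket proteins, Cdkn2d, Rbl1 and Rbl2 were tested and 0 of the 3 were called at either threshold by edgeR, DESeq2 or limma-voom. Cdkn2d, the inhibitor p19, was at 9.79 ± 4.47 and 7.68 ± 1.999 normalised molecules (SD, n = 6). Cdkn1c, Cdkn2a and Cdkn2b had at most 2 molecules in any library and were not tested.

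In the E2F and DP family, 1 of 10 genes was called at an unadjusted p under 0.05, beside 7.72% of all tested genes. Tfdp1, the DNA-binding partner of E2F proteins, was at 16.9 ± 3.86 normalised molecules in DMSO and 9.89 ± 3.83 in picrotoxin (SD, n = 6), a log2 fold change of -0.72 (SE 0.24, unadjusted p = 0.00573 and adjusted p = 0.394 in edgeR), with all 6 picrotoxin libraries below the DMSO mean. E2f2 had a log2 fold change of 0.31 and E2f4 one of -0.21, and 5 of the 10 were below 0. In the cyclin E, cyclin A and CDK2 step, 1 of 8 was called at that threshold, beside the same share of all tested genes. It was Mnat1, a part of the kinase complex that activates CDKs (log2 fold change -0.66, SE 0.29, unadjusted p = 0.0310 and adjusted p = 0.596 in edgeR). DESeq2 and the libraries numbered 3 to 6 gave 0 of 8. Ccne2 was at 0.28, Ccna2 at -0.13 and Ccnh at 0.33.

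The partners of MYC included 2 of 10 that edgeR called higher at an unadjusted p under 0.05, beside 3.67% of all tested genes. DESeq2 and limma-voom also called 2 higher. Without DMSO replicates 3 and 5, or with the matrix score as a covariate, edgeR called 1 higher. Libraries 3 to 6 alone gave 2 higher and 1 lower. Mnt, a repressor that pairs with MAX, was at 4.43 ± 1.48 normalised molecules in DMSO and 8.23 ± 2.02 in picrotoxin (SD, n = 6), with a log2 fold change of 0.89 (SE 0.31, unadjusted p = 0.00783 and adjusted p = 0.410 in edgeR) and all 6 picrotoxin libraries above the DMSO mean. Mlxip, a nutrient-responsive factor that pairs with MLX, was at 4.58 ± 2.13 and 8.72 ± 3.42, with a log2 fold change of 0.95 (SE 0.35, unadjusted p = 0.0108 and adjusted p = 0.446). Max itself was at 16.2 ± 2.40 and 20.3 ± 4.59 (log2 fold change 0.35, unadjusted p = 0.0814), and Mlx was at 10.2 ± 3.88 and 7.46 ± 2.24. Mycn and Mycl had 0 molecules.

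MYC target genes, mostly factors of ribosome assembly and translation, were mostly fitted below 0, with few past the unadjusted threshold. Of 24 tested, 22 had a log2 fold change below 0, beside 50.7% of all tested genes, and the median was -0.19. The list was chosen with earlier results of these data known. This count was tried after seeing the data, so it is a description and not a test. At an unadjusted p under 0.05, 4 of the 24 (16.7%) were called lower in edgeR, beside 4.05% of all tested genes. At an adjusted p under 0.05, 0 of the 24 were called. Mybbp1a, a nucleolar protein, was at 34.3 ± 4.93 normalised molecules in DMSO and 23.2 ± 5.41 in picrotoxin (SD), with a log2 fold change of -0.56 (unadjusted p = 0.00199 and adjusted p = 0.309 in edgeR). Hspe1, the partner of the mitochondrial chaperonin, was at 60.9 ± 7.92 and 49.0 ± 6.50 (log2 fold change -0.31, unadjusted p = 0.0244 in edgeR). Nop56, of the small nucleolar particles, was at 44.7 ± 7.63 and 35.6 ± 3.73 (-0.31, unadjusted p = 0.0361), and the helicase Eif4a1 was at 149 ± 13.1 and 127 ± 12.1 (-0.22, unadjusted p = 0.0398). Each was below its DMSO mean in 6 of 6 picrotoxin libraries. Of the most abundant genes of the list, Ncl was at 165 ± 23.9 and 156 ± 14.2, Npm1 at 176 ± 34.3 and 153 ± 18.2, and Ldha at 235 ± 30.2 and 209 ± 20.4. Without DMSO replicates 3 and 5, 20 of 23 were below 0 with a median of -0.11, and in a fit with the matrix score as covariate 19 of 24 were below 0 with a median of -0.12 and 1 was called lower. Over libraries 3 to 6 alone the median was -0.30 and 9 of 24 were called lower. Calls in either direction numbered 929 of 9666 tested genes in that fit, against 740 of 9580 over all libraries.

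**Figure D4:**
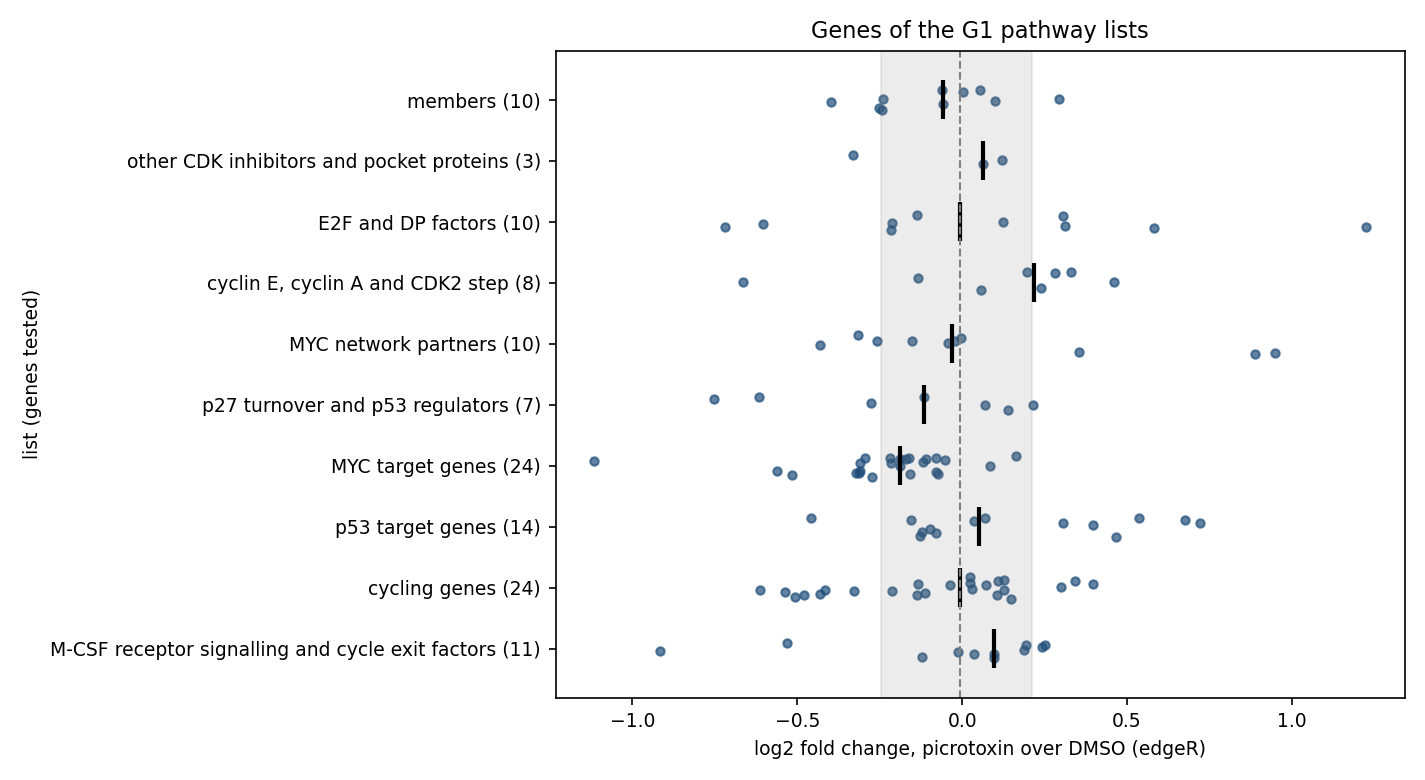
Log2 fold changes, picrotoxin over DMSO, from edgeR (horizontal axis) of the tested genes of each list (rows, with their number); black bars are list medians, the dashed line is the median of all 9580 tested genes, and the grey band runs between their quartiles, -0.25 and 0.21. The 24 MYC target genes have a median of -0.19, with 22 of them below 0. The lists were chosen with earlier results of these data known.

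Among 14 tested p53 target genes, 0 were called at either threshold by edgeR, DESeq2 or limma-voom, and the median was 0.053. Mdm2, the ubiquitin ligase that p53 induces, was at 15.97 ± 3.97 and 16.8 ± 2.18 normalised molecules (SD, n = 6), and Rps27l at 67.5 ± 3.42 and 60.9 ± 9.91. Of 7 tested genes that control p27 turnover or p53, 1 was called lower at an unadjusted p under 0.05, beside 4.05% of all tested genes. This was Mdm4, a partner of MDM2, with a log2 fold change of -0.75 (SE 0.32, unadjusted p = 0.0262 and adjusted p = 0.566 in edgeR). DESeq2, limma-voom and the libraries numbered 3 to 6 alone gave 0 calls in this list at the unadjusted threshold. Cks1b, which helps to mark p27 for destruction, was at 19.4 ± 4.08 and 16.1 ± 4.14, and Cul1 at 17.5 ± 3.20 and 19.0 ± 2.53.

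Downstream, transcripts of S phase and mitosis were split, with 12 of 24 cycling genes below 0 and 12 above. Mki67, Top2a and Pcna, which mark dividing cells, had log2 fold changes of 0.11, 0.11 and 0.072, with unadjusted p-values of 0.444, 0.456 and 0.582 in edgeR. In edgeR, 3 of the 24 were called at an unadjusted p under 0.05, beside 7.72% of all tested genes. They were the mitotic genes Ccnb2 (log2 fold change -0.54, unadjusted p = 0.0277) and Bub1b (-0.61, unadjusted p = 0.0387) and the replication gene Mcm5 (0.40, unadjusted p = 0.0422). DESeq2 called 0 of the 24 at that threshold and limma-voom 3, while edgeR without DMSO replicates 3 and 5 called 0, and with the matrix covariate 1. The cycling score of a library, the mean of the log2 levels (CPM) of these 24 genes, was 6.37 ± 0.13 in DMSO and 6.29 ± 0.10 in picrotoxin (SD, n = 6). The difference of -0.084 was smaller than the SD of either group for single libraries, with p = 0.253 in a two-sided exact permutation test.

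The levels of the members were then set against this score over the 12 libraries. None of 10 correlations had an adjusted p under 0.05. The strongest was that of Cdk4, with Pearson's r = -0.53 (permutation p = 0.0802, adjusted over 10 members 0.752) and Spearman's rho = -0.53 (permutation p = 0.0806, adjusted 0.806). Over libraries 3 to 6 it was -0.20, and without DMSO replicate 2 and picrotoxin replicate 4, the libraries farthest from the median score, it was -0.42. Ccnd1 had r = -0.015 (permutation p = 0.963) and Myc r = -0.41 (permutation p = 0.190). Ccnd3 had r = -0.29 over all libraries (permutation p = 0.362) and -0.77 once the 2 farthest libraries were left out (permutation p = 0.00388, adjusted 0.0388), so the value for Ccnd3 rests on which libraries are used.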

How the data were processed

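The deposited table gives counts, as whole numbers of molecules for each gene, for 12 libraries of 100 sorted cells. Per the labels, heat-fragmented RNA was primed with oligo-dT carrying a molecular barcode, and the authors aligned reads with STAR against mm10, using refFlat genes. Such counts favour 3′ ends. The handling of strand, of multiple matches and of barcode errors was not stated. Of 24781 rows, 10966 held no molecule, and spike-in and mitochondrial rows numbered 0. Library totals ran from 201697 to 309617, so that 3 molecules, the limit a count of 0 allows, are at most 0.00149% of a library; this covers counting error only.

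Genes with a mean above 1 normalised molecule (DESeq2 size factors) were tested, 9580 in all, with edgeR 4.0.16 (quasi-likelihood, TMM, Benjamini-Hochberg), on R 4.3.3. Standard errors came from the F statistic and intervals are at 95%. DESeq2 1.42.0, limma 3.58.1 (voom), other scalings and filters, a replicate block, library terms and left-out libraries were alternatives. Scores and correlations used log2 CPM values (prior count 2), with exact tests or 100000 permutations (scipy 1.17.1). Libraries of a group differed by more than sampling noise in all 30 pairs (chi-square per degree of freedom 1.23 to 3.15). The fits were tested on simulated data. Shared segments came from BLAST 2.17.0 (at least 100 bases, 95% identity), positions from GENCODE mouse release M21 and promoters from RefSeq (GRCm38.p6).

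The members and lists were chosen with earlier results of these data known. All members are named; of each list, the 3 most abundant genes and up to 4 with the smallest unadjusted p under 0.05 are eligible, and for Ccnd1, Myc and Cdkn1a the 3 genes of highest r with a mean of at least 10. For 1 gene taken by this rule no result is reported; the counts of tests include it.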

Additional observations from a re-analysis of the deposited data

Results flagged for a closer look

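Cdkn1a in DMSO replicate 3 was at 32.8 normalised molecules, while the other 5 DMSO libraries were at 61.4 to 77.0. It was flagged because the gap to its nearest neighbour was 0.646 of the range of the group, above the critical value of Dixon's test at 95% for 6 libraries. It was the only flag among 20 group tests (10 genes in 2 groups), and chance gives about 1 in 20.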

How the results depend on the processing

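Few molecules limit Myc, Cdkn1b, Cdkn2c and Rb1 most. Same-numbered libraries were not treated as pairs in the main fit, and no label says whether they were. Their deviations from group means correlated at -0.00498 to 0.126 over 3741 genes, above 0.1 in 1 of 6 pairs. The mean was 0.053, beside -0.011 for DMSO and picrotoxin libraries of different numbers, and 4 of 12 libraries correlated best with their own number. These low correlations cannot decide whether libraries were paired. With the replicate block, 43 genes had an adjusted p under 0.05, against 5 without it, and no member call changed. That count was 2 in DESeq2, 3 in limma-voom, 14 with library totals, 12 without Rn45s, 81 without a filter, 48 in replicates 3 to 6 alone, 27 with libraries 1 and 2 as a term, 0 with the matrix covariate (559 at an unadjusted p under 0.05), 1 without DMSO replicates 3 and 5, and 0 to 25 with 1 library left out. At an unadjusted p under 0.05, DESeq2 called 366 genes and a mean above 10 left 397 calls, against 740; members called numbered 0 in replicates 3 to 6 alone (Ccnd1 -0.21) and 0 to 1 with 1 library left out. No member had an adjusted p under 0.05 in any of the 24 alternatives. The cause of these changes was not tested.

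Of the members, 7 turned sign in at least 1 alternative, and Ccnd1, Ccnd3 and Cdkn1b did not. Log2 fold changes were -0.0017 for Cdk4 with library totals, 0.028 in limma-voom and 0.0076 with the matrix covariate for Cdk6, -0.023 in limma-voom for Myc, -0.00070 with the matrix covariate for Cdkn2c and 0.29 in replicates 3 to 6 for Rb1. Those of Cdkn1a were -0.0074 in DESeq2, -0.0080 with median-of-ratios factors, -0.052 with library totals, -0.020 without Rn45s, -0.014 without a filter, -0.020 above a mean of 10, -0.0021 with libraries 1 and 2 as a term, -0.13 with the matrix covariate and -0.18 without DMSO replicates 3 and 5. With 1 library left out, ranges were -0.16 to 0.043 for Ccnd2, -0.0050 to 0.15 for Cdk4, -0.22 to 0.078 for Cdk6, -0.11 to 0.47 for Myc, -0.14 to 0.055 for Cdkn1a, -0.54 to -0.22 for Cdkn1b, 0.19 to 0.52 for Cdkn2c and -0.40 to -0.079 for Rb1. Correlations with the cycling score turned to 0.24 (replicates 3 to 6) and 0.13 (library totals) for Ccnd1, 0.0057 for Ccnd2 and 0.24 for Myc (replicates 3 to 6), -0.20 (Spearman) for Cdk6, -0.042 (Spearman) and -0.22 (2 farthest libraries out) for Cdkn1b, -0.12 (replicates 3 to 6) and -0.17 (2 farthest out) for Cdkn1a, and -0.57 (2 farthest out) for Rb1, and with the 2 farthest out 1 member (Ccnd3) passed 0.05 adjusted. With 1 library left out they were -0.14 to 0.12 for Ccnd1, -0.26 to 0.075 for Ccnd2, -0.23 to 0.14 for Cdk6, -0.037 to 0.41 for Cdkn1a, -0.22 to 0.41 for Cdkn1b and -0.091 to 0.40 for Rb1. The number of MYC target genes below 0, tried after seeing the data, was 19 to 23 in all alternatives.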
